A study of Homo sapiens with 7 samples.

Results

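The genes described here encode the nuclear subunits of the mitochondrial respiratory chain and ATP synthase. They were chosen by gene symbol alone, as the structural subunits of complexes I to V, and 79 of the 57773 rows of the gene table matched, under 75 symbols. They were compared between libraries labelled KD and libraries labelled parent, all from MDA-MB-231, a long-used line of triple-negative breast cancer cells. The series asks how APE1, a base excision repair enzyme encoded by APEX1, acts with G-quadruplex DNA in metastasis. RNA-seq was done on 2 KD libraries and 3 parent libraries. The labels do not spell out KD. The treatment protocol attached to every sample describes APE1-knockout cells that carry a doxycycline-inducible lentiviral vector for wild-type APE1 or its mutants, and it does not say which of these cells a library came from. The labels name no clone for either group and do not say whether replicates were separate cultures, so each p-value reflects only how far these libraries spread, which may be technical.

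Complex I takes electrons from NADH and complex II takes them from succinate. Both pass them through ubiquinone to complex III, which reduces cytochrome c, and complex IV hands the electrons to oxygen. Complexes I, III and IV pump protons across the inner mitochondrial membrane, and complex V, the ATP synthase, uses the return flow to make ATP. Each complex apart from complex II also contains subunits encoded by the mitochondrial genome.

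Library totals were 14677006 and 15502425 counts in KD, and 14601078 to 18049386 counts in parent. APEX1 had 640 and 753 counts in KD, against 1936, 1936 and 2413 counts in parent, a 0.352-fold level (edgeR adjusted p = 5.9e-05). Of 6 markers of this line, all were present, VIM at 2149 ± 2.06 CPM in KD and 2261 ± 106 CPM in parent (SD, n = 2 and 3). CD44, AXL and ZEB1 fell to 0.789, 0.801 and 0.723 of the parent level (edgeR adjusted p = 0.00951, 0.0296 and 0.00305). Of 6 genes that such cells should lack, ESR1 and FOXA1 had 0 counts in every library, PGR had at most 2, and GATA3, EPCAM and CDH1 were detected. CDH1 rose to 7.70 ± 1.37 CPM in KD, against 3.51 ± 0.430 CPM in parent (edgeR adjusted p = 0.00587). Of 3 markers of other cell types, PTPRC and ALB were at 0, and the fibroblast collagen gene COL1A1 was detected at 25.9 and 23.5 CPM in KD, against 25.5, 18.6 and 18.1 CPM in parent, overlapping. The part of these shifts in the results on the subunits was not tested. All 13 protein-coding genes of the mitochondrial genome are listed at 0 in every library, so the balance between nuclear and mitochondrial subunits could not be measured. CPM is a count scaled to the TMM-adjusted size of its library, with no correction for gene length.

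Of the 79 rows, 76 passed the filter on low counts, and the other 3 were second entries for NDUFA7, NDUFB8 and SDHD with at most 12 counts in a library. In the fit across all 16198 genes, 9 of the 76 rose in KD and 2 fell at an edgeR adjusted p under 0.05. That is 11.8% and 2.63% of the subunits, beside 9.15% of all genes tested that rose and 12.4% that fell. ATP5E, NDUFB10, ATP5L, ATP5D, ATP5J2, NDUFS8, COX8A, UQCRC1 and NDUFV1 rose, and ATP5A1 and NDUFA8 fell. The changes were small. The subunits had a median log2 fold change of 0.03, against 0.00 for all genes tested, and quartiles of -0.07 and 0.15. Of the 76, 69 (90.8%) stayed within 1.2-fold of the parent level, and 61.0% of all genes tested did so. Among the 9179 tested genes with a mean level in the range of the subunits, 13.4 to 464 CPM, the share within 1.2-fold was 72.9%, and 11.8% rose and 13.5% fell. Only ATP5E and NDUFC2 differed by more than 1.5-fold, and NDUFC2 did not pass the test.

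**Figure D1:**
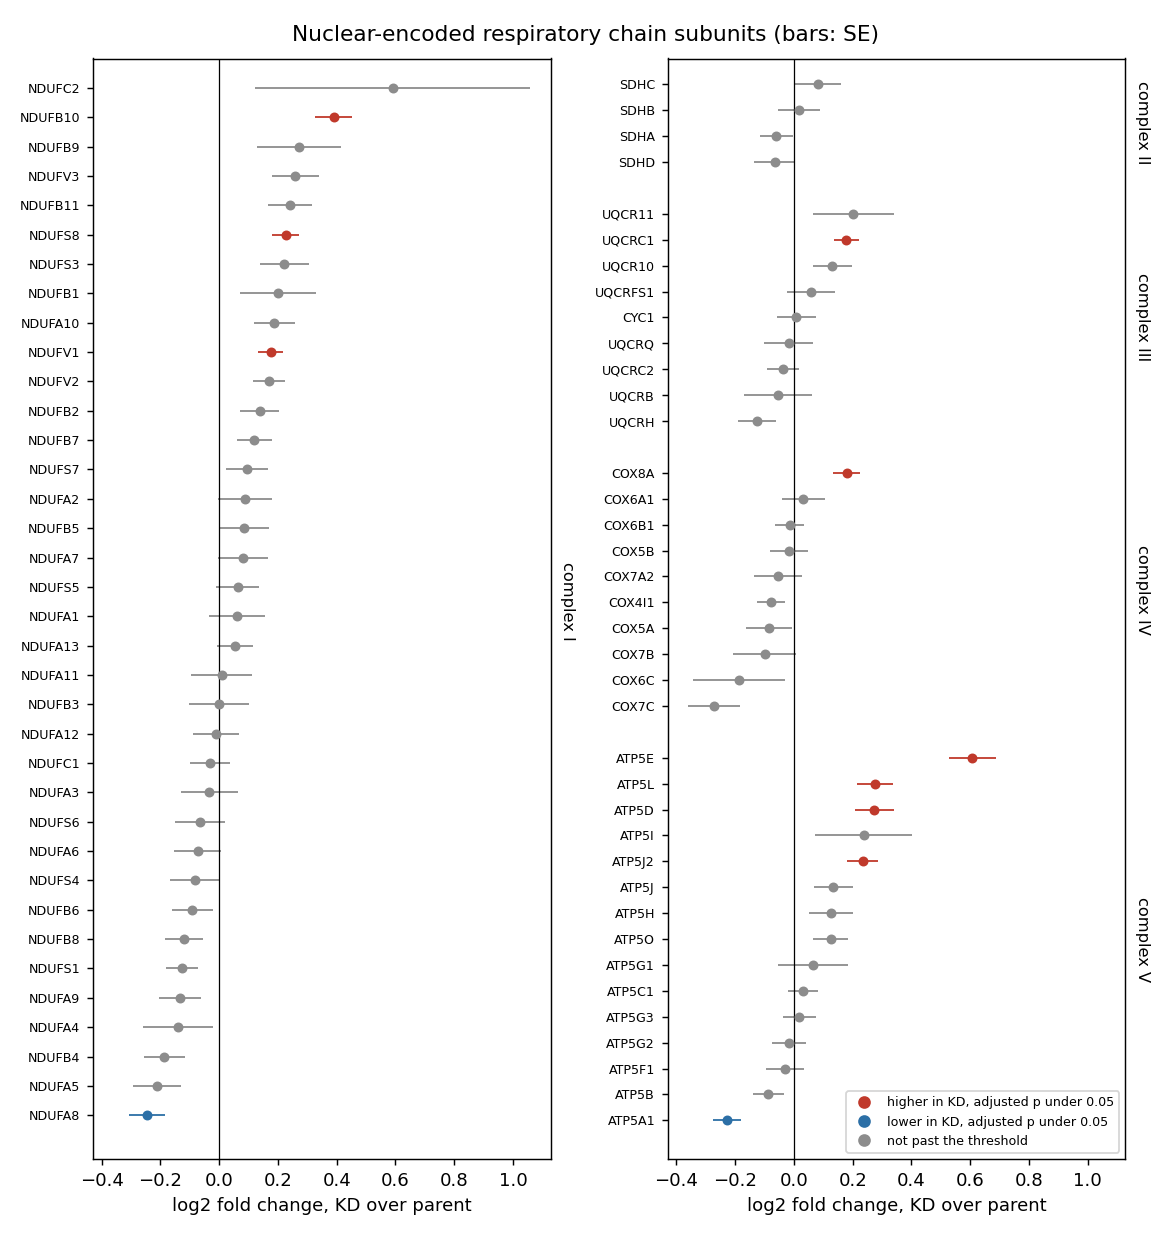
Log2 fold change of KD over parent for the tested rows shown, with bars of 1 SE, ordered within each complex. The second UQCR11 row, whose SE was 1.55, is left out. Points past the threshold are coloured, 69 of the 76 tested rows lie within 1.2-fold, and NDUFC2 is set apart by its wide bar.

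Both KD libraries lay above every parent library for 22 of the 76 subunits (28.9%) and below every parent library for 11 (14.5%). Over all genes tested these shares were 25.3% and 26.1%. The remaining 43 subunits overlapped between the groups. Each of the 11 called subunits was among those that did not overlap, which is no separate evidence, since calls and overlaps come from the same counts.

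The calls on ATP5E and NDUFB10 held in all 12 alternative fits. The other 9 depended on single libraries. All 9 were lost without KD replicate 1 (adjusted p = 0.0655 to 0.218) and without KD replicate 2 (0.0770 to 0.163). Without parent replicate 1 the calls on ATP5D, NDUFV1 and UQCRC1 were lost (0.0544 to 0.0604). Without parent replicate 2 those on ATP5A1, ATP5D, COX8A, NDUFA8, NDUFS8, NDUFV1 and UQCRC1 were lost (0.0580 to 0.108). Without parent replicate 3 those on ATP5J2, ATP5L, COX8A, NDUFA8, NDUFV1 and UQCRC1 were lost (0.0582 to 0.101). With no filter on low counts ATP5D, ATP5J2, ATP5L, COX8A, NDUFV1 and UQCRC1 missed the threshold (0.0548 to 0.0844). None of the 11 changed sign in any of the 12 fits.

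**Figure D2:**
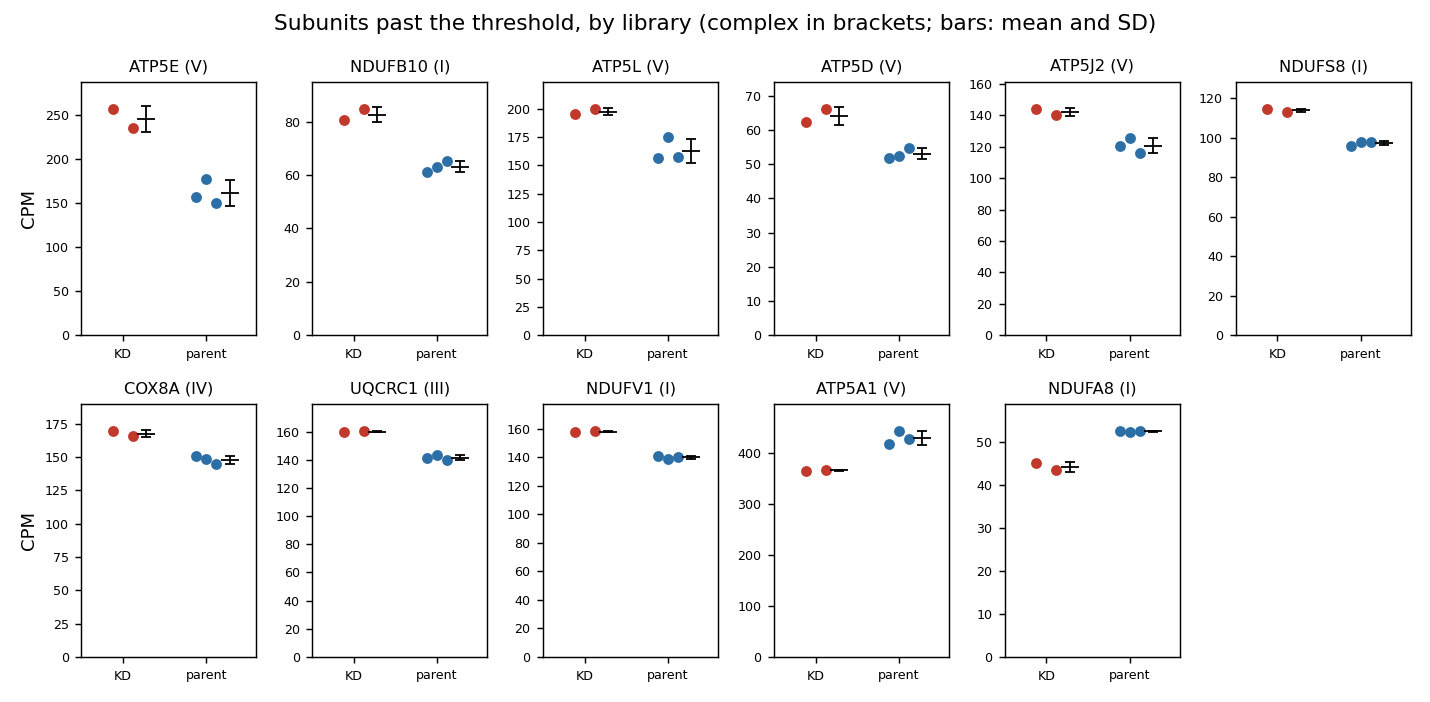
CPM by library for the 11 subunits past the threshold, with KD left of parent, each panel starting at 0 and bars showing mean and SD (n = 2 and 3). The groups do not overlap in any panel, and apart from ATP5E and NDUFB10 the steps are small against the level itself.

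The series concerns G-quadruplexes, and genes of the respiratory chain are textbook targets of the transcription factors NRF1, GABP and YY1. Promoter windows of 6 of the 9 called subunits for which a window was found are therefore given here. Each runs from 250 bases before to 50 bases after the RefSeq start site, build GRCh38.p14, 5′ to 3′ on the strand of the gene. ATP5E lies at chr20:59032286-59032585 on the minus strand, ATP5L at chr11:118401356-118401655 on the plus strand, NDUFB10 at chr16:1959288-1959587 on the plus strand, UQCRC1 at chr3:48609597-48609896 on the minus strand, ATP5A1 at chr18:46104178-46104477 on the minus strand and NDUFA8 at chr9:122159730-122160029 on the minus strand. Capitals mark a match, on either strand, to GCATGCGC (the core of the NRF1 motif), CCGGAAG (ETS factors such as GABP), AAGATGGC (YY1) or a G-quadruplex motif, defined as 4 runs of 3 or more G with loops of 1 to 7 bases.
ATP5E: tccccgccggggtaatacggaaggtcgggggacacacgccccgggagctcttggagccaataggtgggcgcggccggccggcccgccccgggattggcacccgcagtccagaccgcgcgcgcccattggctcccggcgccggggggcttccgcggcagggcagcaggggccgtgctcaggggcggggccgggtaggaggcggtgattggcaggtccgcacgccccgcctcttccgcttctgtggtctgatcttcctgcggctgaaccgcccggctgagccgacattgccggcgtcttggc
ATP5L: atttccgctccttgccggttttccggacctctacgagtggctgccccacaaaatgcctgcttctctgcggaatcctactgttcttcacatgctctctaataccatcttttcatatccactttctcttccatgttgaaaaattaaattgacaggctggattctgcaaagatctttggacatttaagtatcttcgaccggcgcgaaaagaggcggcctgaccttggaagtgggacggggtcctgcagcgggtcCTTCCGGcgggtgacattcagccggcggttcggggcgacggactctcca
NDUFB10: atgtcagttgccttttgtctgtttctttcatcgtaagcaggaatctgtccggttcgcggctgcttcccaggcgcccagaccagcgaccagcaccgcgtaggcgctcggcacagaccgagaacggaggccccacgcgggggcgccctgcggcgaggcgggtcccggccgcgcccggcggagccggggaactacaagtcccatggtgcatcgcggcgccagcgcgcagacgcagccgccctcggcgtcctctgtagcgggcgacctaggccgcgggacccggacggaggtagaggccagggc
UQCRC1: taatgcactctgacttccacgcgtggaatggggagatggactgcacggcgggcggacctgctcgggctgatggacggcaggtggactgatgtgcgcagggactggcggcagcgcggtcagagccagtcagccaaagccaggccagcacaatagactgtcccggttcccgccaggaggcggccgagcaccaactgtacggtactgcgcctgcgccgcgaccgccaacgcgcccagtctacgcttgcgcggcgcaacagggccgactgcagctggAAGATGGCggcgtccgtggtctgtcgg
ATP5A1: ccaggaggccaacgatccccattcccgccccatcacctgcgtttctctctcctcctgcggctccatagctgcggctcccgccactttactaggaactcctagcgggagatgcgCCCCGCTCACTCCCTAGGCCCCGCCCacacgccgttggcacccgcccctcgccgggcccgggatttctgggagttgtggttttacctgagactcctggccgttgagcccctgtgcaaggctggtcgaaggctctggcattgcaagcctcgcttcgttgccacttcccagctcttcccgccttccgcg
NDUFA8: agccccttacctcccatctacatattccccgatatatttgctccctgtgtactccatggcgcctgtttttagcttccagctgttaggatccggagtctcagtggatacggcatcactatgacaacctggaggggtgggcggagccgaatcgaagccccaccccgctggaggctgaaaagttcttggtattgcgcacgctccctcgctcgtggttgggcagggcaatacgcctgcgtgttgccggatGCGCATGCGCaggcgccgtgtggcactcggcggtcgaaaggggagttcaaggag

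ATP5E and NDUFB10, the subunits with the highest fold changes among those called, held no match to any of the 4 motifs in these windows. ATP5L held an ETS match on the opposite strand at position 1 from the start site, and UQCRC1 a YY1 match at 23. NDUFA8 held the NRF1 core on each strand, in overlapping matches at -4 on the opposite strand and -2 on its own. ATP5A1 held a G-quadruplex motif on the opposite strand from -137. Among the called subunits whose windows are not shown, NDUFS8 and NDUFV1 held no match. COX8A, also not shown, held an ETS match on the opposite strand at -18.

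RefSeq windows were found for 61 of the 75 tested subunits with a current symbol. ATP5B, ATP5D, ATP5G3, ATP5J2, COX6C, CYC1, NDUFA4, NDUFB5, NDUFB9, NDUFC2, NDUFS5, SDHC and UQCRB were among those not matched. The NRF1 core was in 13 of the 61 (21.3%), against 3.27% of all 27305 promoter windows and 5.46% of the windows of tested genes. The YY1 motif was in 11 (18.0%), against 3.03% of all windows and 5.31% of those of tested genes. The ETS motif was in 19 (31.1%), against 10.7% of all windows and 19.1% of those of tested genes. G-quadruplex motifs were in 9 (14.8%), against 24.1% of all windows and 34.3% of the windows of tested genes. Median GC content was 61.0% in the subunit windows, 58.3% in all windows and 65.3% in those of tested genes. The 9 with a G-quadruplex motif had a median log2 fold change of 0.12 and the others 0.00. With and without the motif, the medians were -0.0156 and 0.055 for the NRF1 core and 0.0531 and -0.00498 for ETS. For YY1 they were 0.0173 and 0.0204. None of these differences was tested. Of the 7 raised subunits with a window, 0 held a G-quadruplex motif. The NRF1 core was also in 0 of the 7, the ETS motif in 2 and the YY1 motif in 1. The 7 are too few to set against the shares above. These are counts of letters and say nothing of binding.

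ATP synthase held the highest share of called subunits in the edgeR fit, though each of its calls apart from ATP5E depended on single libraries. Of its 15 subunits 4 rose, 1 fell and 10 did not pass the test, and the median log2 fold change was 0.12. Over all genes tested, 9.15% rose and 12.4% fell. The subunits of the catalytic head and central stalk moved both ways. ATP5E, the epsilon subunit of the central stalk, had 257 and 236 CPM in KD, against 157, 178 and 150 CPM in parent. Both KD libraries stood well above the highest parent library. The difference was 1.52-fold, with a log2 fold change of 0.61 ± 0.08 (SE, edgeR adjusted p = 0.00268, within 2.0e-09 to 0.0299 over the alternatives). ATP5E has a processed copy, ATP5EP2, with 62 and 86 counts in KD and 48, 53 and 59 counts in parent. Both KD libraries of the copy were above every parent library in CPM, at a log2 fold change of 0.55 ± 0.19 (SE). The copy did not pass (edgeR adjusted p = 0.0827), and whether it shared reads with ATP5E was not tested. The next gene along the chromosome in the RefSeq annotation, SLMO2 (PRELID3B), also rose, with a log2 fold change of 0.27 (edgeR adjusted p = 0.0214, up to 0.153 over the alternatives), and whether reads of neighbouring or joined transcripts were shared between them was not tested.

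ATP5D, the delta subunit of the same stalk, had 62.2 and 66.0 CPM in KD, against 51.9, 52.3 and 54.8 CPM in parent, and was 1.21-fold higher (edgeR adjusted p = 0.0265, up to 0.134 over the alternatives). ATP5A1, the alpha subunit of the catalytic head, had 366 and 368 CPM in KD, against 418, 444 and 429 CPM in parent. Both KD libraries were lower than every parent library, with a log2 fold change of -0.23 ± 0.05 (SE, edgeR adjusted p = 0.0158, up to 0.0981 over the alternatives). ATP5B, the catalytic beta subunit, had 434 and 466 CPM in KD, against 463, 489 and 482 CPM in parent, and its log2 fold change of -0.09 ± 0.05 did not pass (edgeR adjusted p = 0.296). The gamma subunit ATP5C1 was at 0.03. Subunits that assemble in a fixed ratio in the F1 part differed in the sign of their transcript change, with ATP5E and ATP5A1 each past the threshold in opposite directions.

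The membrane subunits e, f and g, which sit at the interface between paired ATP synthases, had the most uniform values. ATP5L, subunit g, had 195 and 199 CPM in KD, against 156, 175 and 157 CPM in parent, a 1.21-fold level (edgeR adjusted p = 0.0200, up to 0.124 over the alternatives). ATP5J2, subunit f, had 144 and 140 CPM in KD, against 121, 126 and 116 CPM in parent, a 1.18-fold level (edgeR adjusted p = 0.0225, up to 0.155). ATP5I, subunit e, had 18.6 and 16.5 CPM in KD, against 12.1, 18.0 and 14.6 CPM in parent. Its log2 fold change was 0.24 ± 0.16, but the groups overlapped and it did not pass (edgeR adjusted p = 0.359). Summed over the 3 genes, the level was 358 and 356 CPM in KD, against 289, 319 and 288 CPM in parent.

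The peripheral stalk, which holds the head in place, had 0 of 4 subunits past the threshold by edgeR, DESeq2 or voom, and 0 at an unadjusted edgeR p under 0.05. ATP5H, ATP5J and ATP5O lay at log2 fold changes of 0.13, 0.13 and 0.12, with both KD libraries above every parent library, and ATP5F1 at -0.03. Of all genes tested, 25.3% had both KD libraries above every parent library. The 3 genes of the c ring, ATP5G1, ATP5G2 and ATP5G3, which encode the same mature protein, lay between -0.02 and 0.06 and overlapped between the groups. ATPIF1, the inhibitor protein of the ATP synthase and no member of the set, was 1.14-fold higher, at 129.5 and 126 CPM in KD, against 111, 116 and 110.0 CPM in parent (edgeR adjusted p = 0.0373, up to 0.219 over the alternatives).

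**Figure D3:**
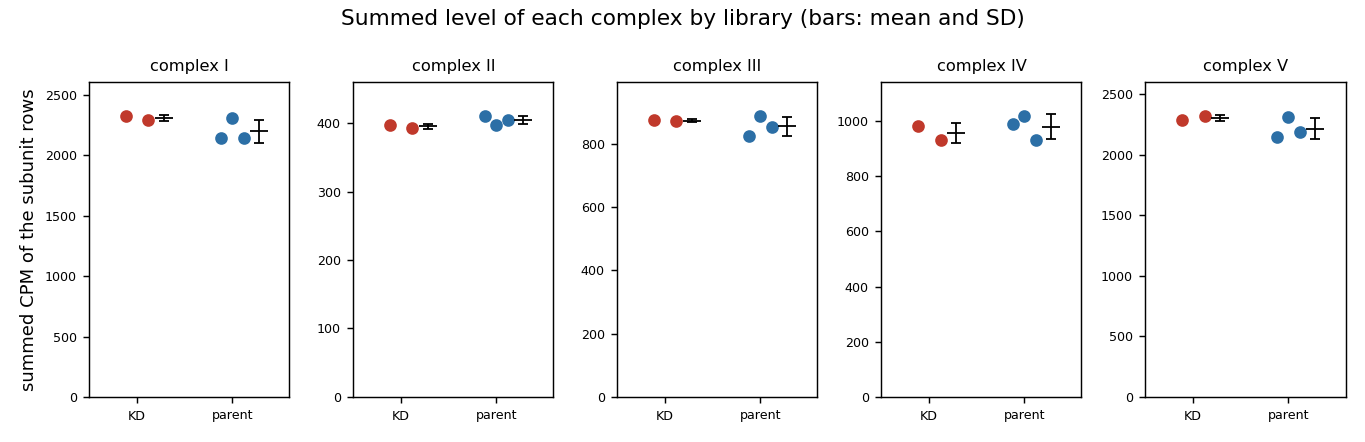
Summed CPM of the rows of each complex by library, KD left of parent, axes from 0, bars of mean and SD (n = 2 and 3). The KD and parent libraries overlap in complexes I, III, IV and V. In complex II both KD libraries lie below every parent library, but narrowly. KD replicate 1 is at 398.03 CPM and parent replicate 2 at 398.16 CPM.

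Complex I, the largest of the chain, had 3 subunits that rose, 1 that fell and 33 that did not pass, with a median log2 fold change of 0.06. Its counts, and those of its modules below, are to be read against all genes tested, of which 9.15% rose and 12.4% fell. In the module that oxidises NADH, 1 of 8 subunits rose. NDUFV1, which binds NADH and the flavin, had 158 CPM in both KD libraries, against 141, 139 and 140 CPM in parent, a 1.13-fold level (edgeR adjusted p = 0.0286, up to 0.168 over the alternatives). Its replicates were the closest of all 76 subunits. NDUFV2 and NDUFV3 had log2 fold changes of 0.17 and 0.26 and did not pass (edgeR adjusted p = 0.0684 and 0.0642), while NDUFS1, which carries iron-sulfur clusters, was at -0.13 (0.147).

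In the module that reduces ubiquinone, 1 of 8 tested subunits rose. NDUFS8, an iron-sulfur subunit, had 114 and 113 CPM in KD, against 96.0, 98.2 and 98.1 CPM in parent, a 1.17-fold level (edgeR adjusted p = 0.0164, up to 0.109 over the alternatives). The core subunits NDUFS3 and NDUFS7 lay at 0.22 and 0.10, and the accessory subunits NDUFA5 and NDUFA9 at -0.21 and -0.13. None of these 4 passed. With the replicate number as a block, NDUFS3 and NDUFA5 did (adjusted p = 0.0437 and 0.0380).

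Among the accessory subunits of the membrane arm, 1 of 20 tested rose and 1 fell. NDUFB10 had 80.8 and 84.7 CPM in KD, against 61.2, 63.0 and 65.3 CPM in parent. The KD libraries lay well above the parent libraries, at a 1.31-fold level and a log2 fold change of 0.39 ± 0.06 (SE, edgeR adjusted p = 0.00581, within 6.3e-05 to 0.0370 over the alternatives). NDUFA8, an accessory subunit that faces the intermembrane space, had 45.0 and 43.3 CPM in KD, against 52.4, 52.3 and 52.4 CPM in parent. Its log2 fold change was -0.25 ± 0.06 (edgeR adjusted p = 0.0300, up to 0.145 over the alternatives), and the fit with the replicate number as a block gave 0.0513. NDUFB9 had 18.7 CPM in KD replicate 1 and 26.3 CPM in KD replicate 2, against 18.1 to 19.3 CPM in parent, so that its value of 0.27 rested on KD replicate 2 (edgeR adjusted p = 0.227, and 0.0326 without KD replicate 1). NDUFS5 had 167 and 157 CPM in KD, against 153, 169 and 144 CPM in parent, overlapping, and did not pass (edgeR adjusted p = 0.603). NDUFA4, which bears a complex I name but is now counted with complex IV, was at -0.14 (edgeR adjusted p = 0.464). Here it was kept, by its name, in the counts, median and sum of complex I and left out of those of complex IV.

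NDUFC2 had the highest log2 fold change in complex I, 0.59, with an SE of 0.47, and it did not pass (edgeR adjusted p = 0.423). It had 1324 and 1380 counts in KD, against 340, 1253 and 1256 counts in parent. The low parent library was replicate 1. The joined gene NDUFC2-KCTD14, which shares exons with NDUFC2, had 0 counts in both KD libraries, against 1013, 0 and 182 counts in parent replicates 1, 2 and 3. Summed, the 2 rows had 89.7 and 88.5 CPM in KD, against 86.4, 85.6 and 80.4 CPM in parent. With the rows summed, the log2 fold change was 0.08 ± 0.06 (edgeR adjusted p = 0.364).

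**Figure D4:**
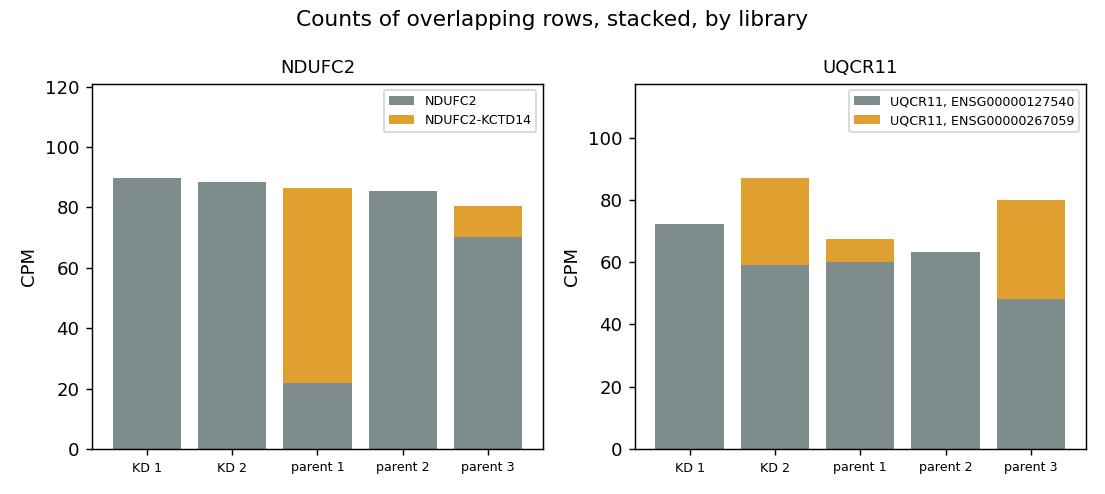
CPM of overlapping rows stacked by library, for NDUFC2 with NDUFC2-KCTD14 and for the 2 rows named UQCR11. The split between rows varies from library to library within a group, and the NDUFC2 stack is nearly level at 80.4 to 89.7 CPM.

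Complex II, which is also the succinate dehydrogenase of the citric acid cycle, had 0 of 4 tested subunits past the threshold by edgeR, DESeq2 or voom, and 0 at an unadjusted edgeR p under 0.05. SDHA, the flavoprotein, had 226 and 220 CPM in KD, against 241, 219 and 237 CPM in parent. SDHB, the iron-sulfur subunit, was at a log2 fold change of 0.02 (edgeR adjusted p = 0.893). The membrane anchor SDHC had 48.2 and 46.1 CPM in KD, against 43.9, 48.0 and 41.8 CPM in parent. The other anchor, SDHD, had 63.9 and 65.4 CPM in KD, against 63.3, 69.1 and 70.5 CPM in parent. All 4 overlapped between the groups, and their edgeR adjusted p values were at least 0.505. The pseudogene SDHAP2, a partial copy of SDHA, had 0 counts in both KD libraries, against 50, 46 and 62 counts in parent (edgeR adjusted p = 0.000323), while SDHAP1 and SDHAP3 did not pass. SDHAP2 was singled out after its values were seen, and its counts can be confused with those of SDHA.

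In complex III, 1 of 10 tested rows rose, beside 9.15% of all genes tested. UQCRC1, a core protein, had 160 CPM in both KD libraries, against 141, 143 and 140 CPM in parent, a 1.13-fold level (edgeR adjusted p = 0.0285, up to 0.168 over the alternatives). The other core protein, UQCRC2, was at -0.04 and did not pass. The subunits that carry electrons, cytochrome c1 (CYC1) and the Rieske protein (UQCRFS1), were at 0.01 and 0.06. UQCRH, the hinge protein, had 97.0 and 90.7 CPM in KD, against 97.9, 108 and 101 CPM in parent, the lowest log2 fold change of the complex at -0.13 (edgeR adjusted p = 0.219). UQCRB had 177 and 146 CPM in KD, against 163, 190 and 151 CPM in parent, and the sign of its value of -0.06 depended on which library was left out.

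UQCR11 appears on 2 rows. The row ENSG00000127540 had 1065 and 924 counts in KD, against 942, 924 and 860 counts in parent, and the row ENSG00000267059 had 0 and 27.7 CPM in KD, against 7.15, 0 and 31.8 CPM in parent. The current name table gives the symbol only to the first. With both summed, the level was 72.1 and 86.9 CPM in KD, against 67.3, 63.1 and 79.9 CPM in parent, and the log2 fold change of 0.18 ± 0.12 did not pass (edgeR adjusted p = 0.346).

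Complex IV, cytochrome c oxidase, had 8 of 10 subunits with a log2 fold change below 0 and a median of -0.07. The 1 that passed the test rose, as did 9.15% of all genes tested. The difference in median from the other complexes was not tested. COX8A had 169 and 165 CPM in KD, against 151, 149 and 145 CPM in parent, a 1.13-fold level (edgeR adjusted p = 0.0323, up to 0.218 over the alternatives). COX7C had 71.4 and 62.8 CPM in KD, against 82.2, 86.0 and 74.8 CPM in parent. Both KD libraries were below every parent library, but its log2 fold change of -0.27 ± 0.09 did not pass (edgeR adjusted p = 0.0716, within 0.0326 to 0.290 over the alternatives). It passed with the replicate number as a block, without parent replicate 3 and in the DESeq2 test. The larger nuclear subunits COX4I1, COX5A and COX5B lay at -0.08, -0.09 and -0.02 and did not pass. COX6A1 shares sequence with a copy, COX6A1P2, that had 748 and 755 counts in KD, against 800, 704 and 842 counts in parent. Added together, the 2 rows gave 170.3 and 152 CPM in KD, against 161, 161 and 152 CPM in parent, overlapping.

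The isoforms that replace complex IV subunits in other tissues or under low oxygen were nearly absent. COX4I2, COX6A2, COX8C and NDUFA4L2 had 0 counts in all 5 libraries, and COX7A1 had at most 3. COX6B2, a testis isoform, had 0 and 6 counts in KD, against 10, 7 and 11 counts in parent, and was not tested. COX7B2, also a testis isoform, had 0 counts in both KD libraries, against 9, 18 and 12 counts in parent, and fell (edgeR adjusted p = 0.0119, up to 0.0477 over the alternatives). Set against 3 counts over both KD libraries, it was at least 8.36-fold lower, a bound that covers counting error only.

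Replicates of most subunits were close. The SD of log2 CPM within groups had a median of 0.08 over the 76 rows and was under 0.1 for 51 of them. It was over 0.2 for 6 rows, which were both UQCR11 rows, NDUFC2, ATP5I, COX6C and NDUFB9. COX6C had 57.8 and 43.8 CPM in KD, against 60.3, 64.7 and 48.7 CPM in parent. Over all 79 rows, the summed level was 6866 and 6805 CPM in KD, against 6515, 6924 and 6521 CPM in parent. Parent replicate 2 was above both KD libraries, so the total did not separate the groups.

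In the authors' deposited table, which gives APEX1 a log2 fold change of -1.52 and so sets KD over parent, 5 subunits were higher and 1 lower at an adjusted p under 0.05. The authors' deposited table calls 13.6% of the genes to which it gives an adjusted p. Its 6 called subunits were ATP5E, ATP5L, ATP5J2, NDUFB10 and NDUFS8, higher, and ATP5A1, lower, and all 6 are among the 11 of the edgeR fit. For ATP5E the authors' deposited table gives a log2 fold change of 0.60 with an adjusted p of 8.8e-10.

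Genes that work with the respiratory chain were grouped in other lists of mitochondrial genes, whose counts are to be read against the 9.15% of all genes tested that rose and the 12.4% that fell. Of 49 assembly factors, 2 rose (4.08%) and 1 fell (2.04%), with a median log2 fold change of 0.01. UQCC2, needed to make the mitochondrial subunit of complex III, had 43.9 and 37.1 CPM in KD, against 30.7, 31.4 and 29.4 CPM in parent (1.33-fold, edgeR adjusted p = 0.0165, up to 0.103 over the alternatives). ECSIT, a complex I assembly factor, also rose, and CMC1, which acts on complex IV, fell to 20.6 and 27.0 CPM in KD, against 33.4, 33.1 and 30.7 CPM in parent. Of 77 mitochondrial ribosomal protein rows, 5 rose (6.49%) and 3 fell (3.9%), with a median of 0.05. MRPL53, MRPL33 and MRPL30 were 1.24-fold, 1.24-fold and 1.32-fold higher, and MRPL15 was at 0.844 of the parent level. Of 12 tested rows for further isoforms and small proteins of the complexes, 2 rose (16.7%) and 1 fell (8.33%): ATPIF1, HIGD2A and COX7B2.

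Of 27 genes of the citric acid cycle and pyruvate dehydrogenase, which feed the chain, 3 rose (11.1%) and 4 fell (14.8%), shares near those of all genes, with a median of -0.01. The phosphatases that activate pyruvate dehydrogenase fell, PDP1 to 90.9 and 93.0 CPM in KD, against 118, 124 and 119 CPM in parent (edgeR adjusted p = 0.00254), and PDP2 to 0.712 of the parent level (0.00868). The kinase PDK2, which inactivates the same enzyme, was 1.40-fold higher (0.0106). IDH2, the NADP-dependent isocitrate dehydrogenase, had 59.1 and 49.9 CPM in KD, against 40.2, 33.2 and 33.1 CPM in parent (1.53-fold, edgeR adjusted p = 0.0106, up to 0.0673 over the alternatives). IDH3A, the catalytic subunit of the NAD-dependent enzyme, was at 0.727 of the parent level and fell (0.0138). Of 32 import genes, 2 fell (6.25%) and 0 rose by edgeR, DESeq2 or voom, with 5 higher at an unadjusted edgeR p under 0.05 and 4 that rose with the replicate number as a block. TIMM21, which links the import channel to the respiratory chain, had 8.60 and 7.76 CPM in KD, against 16.7, 17.7 and 14.6 CPM in parent (edgeR adjusted p = 0.00212), and TOMM34 was at 0.747 of the parent level (0.00539).

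Of 25 tested regulators of nuclear respiratory genes, 1 rose (4%) and 4 fell (16%), a difference of few genes from the shares over all genes. PRKAA2, a catalytic subunit of the energy sensor AMPK, had 14.4 and 14.1 CPM in KD, against 32.8, 34.5 and 34.3 CPM in parent, 0.422 of the parent level (edgeR adjusted p = 8.4e-05). PRKAA1, TFB2M and TFAM, the last a packaging and transcription factor of mitochondrial DNA, fell to 0.786, 0.709 and 0.789 of the parent level (edgeR adjusted p = 0.0251, 0.0257 and 0.0473), and the corepressor NRIP1 was 1.41-fold higher (0.0271). NRF1 and GABPA, whose motifs were counted above, had log2 fold changes of 0.19 and 0.00 and did not pass. YY1, whose motif was also counted, was not among the regulators called. With 1 library left out at a time, the counts that rose and fell ranged over 0 to 1 and 0 to 2 for the assembly factors, 0 to 2 and 0 to 3 for the ribosomal proteins, and 0 to 2 and 2 to 5 for the citric acid cycle. They ranged over 0 to 1 and 2 to 4 for import, 0 to 1 and 1 to 4 for the regulators, and for the further isoforms 0 rose and 0 to 2 fell. PDP1, TIMM21, TOMM34 and PRKAA2 passed in all 12 alternatives, PDP2, PDK2 and IDH2 in 11, UQCC2 and IDH3A in 10, and COX7B2 in the 10 that tested it. The other genes named from these lists passed in 4 to 8 of the 12.

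**Figure D5:**
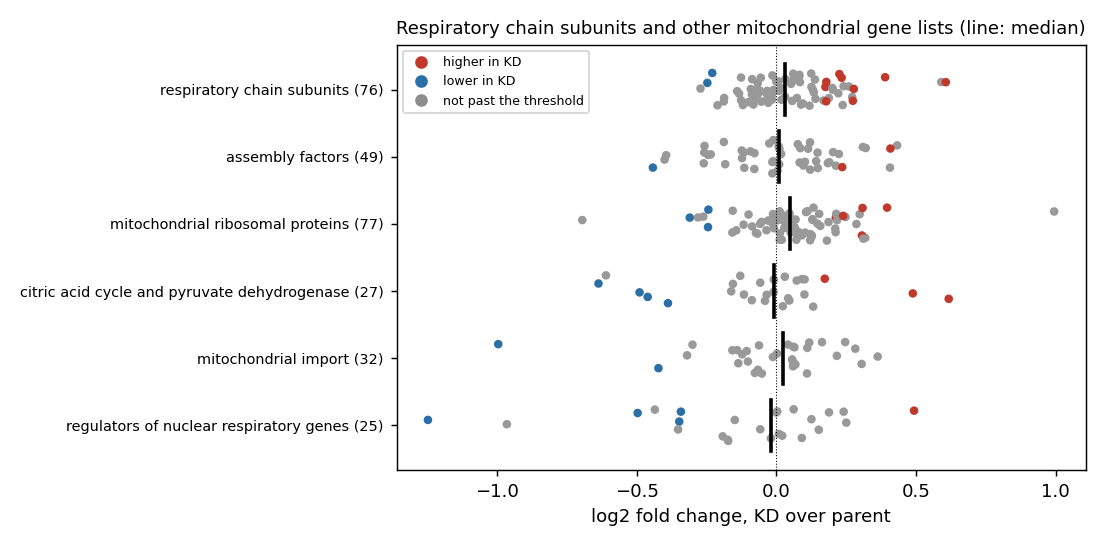
Log2 fold change of KD over parent for the tested respiratory chain subunits and 5 other mitochondrial lists, number of tested rows in brackets, vertical lines at medians. The medians lie between -0.02 and 0.05, and single genes of the ribosomal protein, citric acid cycle, import and regulator lists lie farther from 0 than any of the subunits.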

How the data were processed

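RNA-seq of 2 KD and 3 parent libraries was used, grouped by sample title. The 2 chromatin immunoprecipitation samples were not analysed here. The authors deposited gene and transcript tables of estimated counts, written as whole numbers. Their comparison table gives, per the file headers, the base mean (a signal), log2 fold changes with standard errors, a Wald score, p-values and adjusted p-values. STAR, DESeq2 and hg19 are named, per the submitters' processing notes. Which tool counted, with what annotation and strand setting, is not stated there.

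Genes were filtered with filterByExpr (minimum count 10, minimum total 15) and scaled with TMM factors. KD was compared with parent by edgeR 4.0.16 quasi-likelihood tests in R 4.3.3 over all 16198 genes, with group as the only term and 3 residual degrees of freedom. P-values were Benjamini-Hochberg adjusted, with a threshold of 0.05. Standard errors were derived from the log2 fold change and its F statistic. Alternatives were DESeq2 1.42.0 (size factors, Wald test), limma 3.58.1 (voom), library totals, no filter, a replicate block, each library left out, and, chosen after seeing the data, overlapping rows summed. The code was tested on simulated counts.

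The members and lists were chosen with earlier results of these data known. Described in full are called members, each complex's extremes and its member with the most counts, and, in other lists, up to 4 called genes. Any other gene named, such as COX6C, IDH3A or TFAM, was chosen after its values were seen. No p-value was computed over a list. The values of 1 subunit are not reported here, though it is in the counts and sums. The SD within groups used log2(CPM + 0.01).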

Additional observations from a re-analysis of the deposited data

How the results depend on the processing

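The number of subunits that rose, 9, was 3 with no filter on low counts and ranged from 2 to 6 when 1 library was left out, lowest without KD replicate 2. The number that fell, 2, ranged from 0 to 2, with 0 without KD replicate 1, KD replicate 2 or parent replicate 2. The number of all genes called, 3485, ranged from 1823 to 3383 in the same fits. The median log2 fold change of the subunits stayed between 0.00 and 0.06 in all 12 alternatives and moved by less than the spread between replicates. The value of UQCRB, -0.06, was -0.20 and 0.075 when KD replicates 1 and 2 were left out in turn, the extremes of that range, and 0.04 without parent replicate 2. The cause was not tested. With the replicate number as a block, 3940 genes and 13 subunits were called, 10 of them shared with the 11 of the fit without it. The labels do not say that the numbers pair the samples, and deviations of KD replicate 1 correlated with those of parent replicates 1, 2 and 3 at 0.14, -0.01 and -0.14 across genes, which are not independent. Scaling by library totals moved the median of all genes to 0.02. With 2 KD libraries, leaving out 1 assumes that the lone library varies like the parent ones.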
